A study of Mus musculus with 8 samples.

Results

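The retina of the rd10 mouse was followed over the 6 days from postnatal day 15 (P15) to postnatal day 21 (P21), by setting 2 rd10 libraries of P21 against 2 rd10 libraries of P15. These are 4 of the 8 libraries in the series, and the comparison covered 20457 genes that passed a filter on low counts, out of 57010 gene identifiers in the table. rd10 mice were homozygous for a missense mutation of Pde6b, the gene for the beta subunit of the cGMP phosphodiesterase of rods. The methods describe the period as the onset and active phase of photoreceptor loss. The remaining libraries were from rd10 retinas at P18 and from WT retinas at P15, 2 of each, and are used here to place the levels. The methods name C57BL/6J mice as WT and littermates as controls, and give no strain for the rd10 line. Each library held poly(A) RNA of 1 whole retina, and nothing in the labels says whether the retinas of a group came from separate litters, so the p-values measure the spread between these retinas. No WT library of P18 or P21 was analysed here, so normal maturation over these days and the degeneration cannot be told apart.

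Rods carry the light-sensitive cascade of transducin and the phosphodiesterase, and in rd10 mice a faulty phosphodiesterase leads to the death of rods first and of cones later. Müller glia, the radial support cells of the retina, answer to photoreceptor damage with a gliosis programme that includes the filament protein GFAP, the transcription factor STAT3 and its inhibitor SOCS3. Microglia, the resident macrophages, move to the photoreceptor layer, take up dying cells and can turn on complement, lysosomal and interferon-stimulated genes. Over the same days the normal mouse retina receives its first patterned light, after eyelid opening, and completes its synapses and outer segments.

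Levels are CPM, read counts scaled to library size with TMM factors, and where 2 values are given for a group they are replicate 1 and then replicate 2. A gene was called when edgeR's quasi-likelihood test gave a Benjamini-Hochberg adjusted p under 0.05 over all tested genes and the log2 fold change was over 1 in size, and "rose" and "fell" are used for called genes alone. By this rule 82 genes were called, or 0.401% of those tested, of which 61 rose (0.298%) and 21 fell (0.103%). The called genes that rose had a median log2 fold change of 1.96, those that fell one of -1.74, and over all tested genes the median was 0.011 with quartiles of -0.27 and 0.37. The P15 and P21 libraries did not overlap for any of the 82 genes. Over all tested genes, both P21 libraries lay above both P15 libraries in 26% and below them in 25.5%, and an unadjusted p under 0.05 was reached by 7.39% in the higher and 5.44% in the lower direction. The counts given below for groups of genes are read beside these shares.

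**Figure D1:**
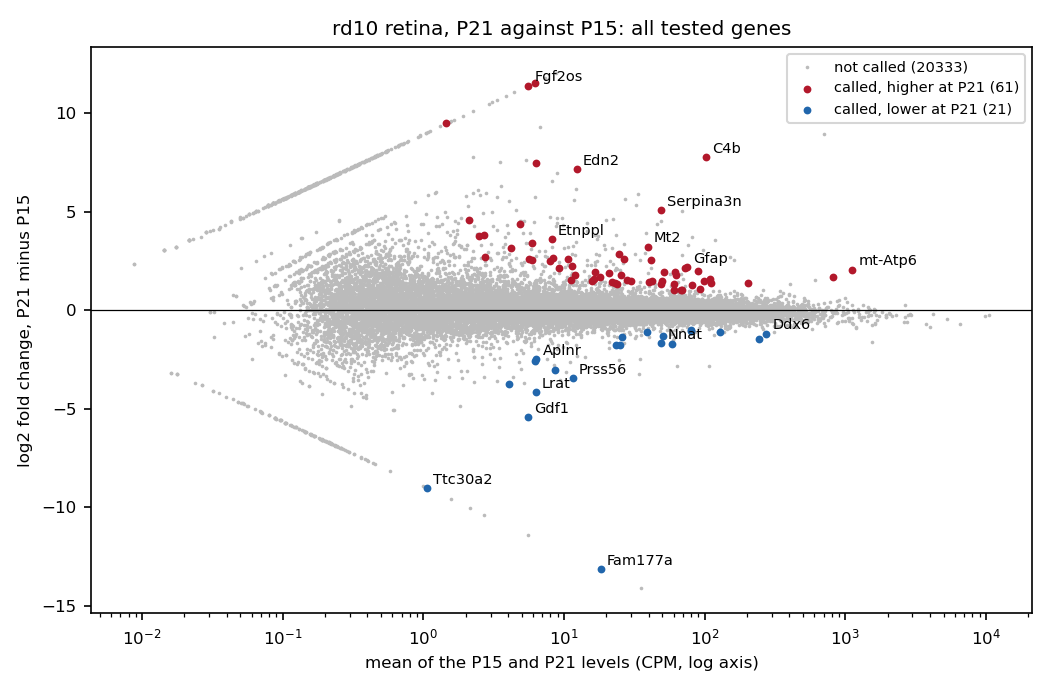
Log2 fold change from P15 to P21 (vertical axis) against the mean CPM of both ages (horizontal, log axis), with 1 point per tested gene; red points rose, blue points fell and grey points were not called, and 42 tested genes without a count at either age are left out. The 61 red points spread over low and high levels, and the genes far from 0 on both sides include Fgf2os and Fam177a, which had no count in either library of one age.

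The 4 libraries held 28076947 to 33724562 counts, and their 10 most abundant genes took 4.44% to 6.04% of them. Gnat1, the alpha subunit of rod transducin, was at 4461 to 8362 CPM in all 4, so rod transcripts were abundant throughout. Y-linked transcripts were present in both rd10 P15 libraries and in P21 replicate 1, while Xist marked P21 replicate 2. The ages thus differed in sex as well. Xist also marked both WT P15 libraries, with 30688 and 26338 counts against 79 and 89 in rd10 P15. Wherever WT and rd10 retinas of P15 are set side by side below, genotype and sex therefore cannot be told apart. All 82 genes kept their direction in each of 15 alternative settings, but the calls leaned on the small groups: without P15 replicate 1 there were 11 calls, 6 of them among the 82, and without P15 replicate 2 there were 10, of which 7 were among the 82. Without P21 replicate 1 or 2, 22 and 40 of the 82 were still called, and without WT replicate 1 or 2, 57 and 56. Fam177a, Mt2, mt-Atp6, Edn2 and Fgf2os were called in every one of the 15. DESeq2 called 532 genes, all 82 among them. An edgeR fit with a term for sex called 156 genes, with 68 of the 82 among them.

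The risers included genes of the stress and gliosis response of Müller glia. Of 20 listed genes of reactive Müller glia, 10 rose, namely Edn2, Serpina3n, Bcl3, Mt2, Socs3, Gfap, Mt1, Cd44, Stat3 and Cp. The list is not of Müller glia alone, since photoreceptors make Edn2 and Gfap also marks astrocytes. In 18 of the 20 both P21 libraries lay above both P15 libraries, the same number had an unadjusted p under 0.05 in that direction, and the median log2 fold change was 2.33, against 0.011 for all genes. DESeq2 called 16 of them, and an edgeR fit with a term for sex called 8. Without P15 replicate 1 or 2 the median was 2.54 and 2.02. Nes, an intermediate filament of immature and reactive glia, was below its P15 level (21.8 and 21.1 CPM at P15, 11.1 and 10.5 at P21) without passing the test, and the filament Vim overlapped between the ages. In bulk tissue a change in the number of cells of a type and a change in RNA per cell cannot be told apart, here and for every cell type below.

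Edn2, the gene for endothelin-2, a peptide that photoreceptors release under stress, was at 0.191 and 0.141 CPM at P15 and at 27.5 and 21.4 CPM at P21. Its log2 fold change was 7.16 (SE 0.52, edgeR adjusted p = 0.00247), with 34.4 and 28.01 CPM at P18 and with 1.85 and 4.44 CPM in WT retina at P15. Edn2 was thus near 0 in rd10 retina at P15 and more abundant in every later library.

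Gfap was at 28.1 and 25.03 CPM at P15. At P18 it stood at 363 and 399 CPM, and at P21 at 126 and 119.8 CPM. The P21 libraries stood close together, above both P15 libraries and below both P18 libraries, and the P21 to P15 log2 fold change was 2.21 (SE 0.21, edgeR adjusted p = 0.00801). Stat3 went from 61.0 and 62.1 CPM at P15 to 154 and 168 at P21 (log2 fold change 1.39, SE 0.12, edgeR adjusted p = 0.00479). Socs3, the feedback inhibitor of STAT3 signalling, was at 1.94 and 1.48 CPM at P15 and at 12.3 and 7.83 at P21, after 51.6 and 42.7 at P18. The Gfap and Stat3 calls were lost without either P15 library, with adjusted p up to 0.0765 and 0.079.

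The metallothioneins Mt1 and Mt2, small proteins that bind zinc and copper, rose together. Mt2 was at 6.87 and 8.21 CPM at P15 and at 82.3 and 59.7 at P21 (log2 fold change 3.23, SE 0.20, edgeR adjusted p = 0.00116), and Mt1 at 21.7 and 20.5 against 92.0 and 71.2. Serpina3n, a secreted protease inhibitor of reactive glia, was at 2.07 and 3.42 CPM at P15, at 212 and 241 at P18 and at 131 and 57.7 at P21. Cp, which encodes the iron-oxidizing protein ceruloplasmin, was at 115 and 113 CPM at P15 and at 354 and 235 at P21. For all 4 genes both P21 libraries were above both P15 libraries and below both P18 libraries.

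Further risers were Cebpd, a transcription factor of the acute phase, Gadd45b, a stress-inducible gene, Tnfrsf1a, the main receptor for tumour necrosis factor, Tgm2, a cross-linking enzyme, S100a6, a calcium-binding protein, Chil1, a secreted chitinase-like protein, and Btc, a ligand of the epidermal growth factor receptor. Tnfrsf1a was at 6.87 and 6.98 CPM at P15 and at 26.3 and 26.6 at P21, a difference far larger than that within either age. Cebpd was at 6.87 and 7.93 CPM against 51.5 and 40.2. The risers differed in where P18 stood. Of the 61 genes that rose, the mean at P18 was above the means of both other ages in 26 and between them in 35. Gfap, Socs3, Mt1, Mt2, Bcl3, Cebpd and Chil1 belonged to the first kind.

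Fgf2os, a transcript antisense to Fgf2, had no count in either P15 library and stood at 9.76 and 12.4 CPM at P21, at least 218-fold higher. Fgf2 itself, a survival factor for photoreceptors, was at 11.8 and 15.3 CPM at P15 and at 135 and 139.6 at P21, but its P18 libraries were far apart at 146 and 12.9 CPM, and it was not called (log2 fold change 3.34, SE 1.06, edgeR adjusted p = 0.300). In GENCODE M21 no exon of Fgf2os overlaps an exon of another gene. The level of Fgf2os was 0.961 and 1.81 CPM in WT retina at P15.

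Because STAT3 and its inhibitor rose together, promoters of the called genes were searched for the palindromic STAT-binding motif TTCCNGGAA on both strands, in 300 bases of RefSeq sequence (GRCm38.p6) from 250 bases before to 50 bases after the gene start. Of 44 risers with a promoter in the RefSeq table, 3 held the motif, or 6.82%, and none of 11 matched fallers did. Of all 27025 genes in that table, tested here or not, 1.35% held it. Among 24 interferon-stimulated genes with a promoter in the table, none of them called, 3 held it (12.5%). The promoters of the 3 risers are shown because they carry the match, which is in capitals. All 3 matches lie within a few bases of the start. They are the promoters of Gfap (chr11:102897151-102897450, minus strand), Lrrc2 (chr9:110951295-110951594, plus strand), which encodes a leucine-rich repeat protein, and Tnip2 (chr5:34513930-34514229, minus strand), which encodes an inhibitor of NF-kappaB signalling.
Gfap: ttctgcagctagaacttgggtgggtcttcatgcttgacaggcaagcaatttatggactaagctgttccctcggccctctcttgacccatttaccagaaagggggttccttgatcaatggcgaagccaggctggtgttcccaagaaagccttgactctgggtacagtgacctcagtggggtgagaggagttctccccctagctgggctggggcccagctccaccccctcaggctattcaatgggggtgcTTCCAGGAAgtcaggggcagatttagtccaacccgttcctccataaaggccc
Lrrc2: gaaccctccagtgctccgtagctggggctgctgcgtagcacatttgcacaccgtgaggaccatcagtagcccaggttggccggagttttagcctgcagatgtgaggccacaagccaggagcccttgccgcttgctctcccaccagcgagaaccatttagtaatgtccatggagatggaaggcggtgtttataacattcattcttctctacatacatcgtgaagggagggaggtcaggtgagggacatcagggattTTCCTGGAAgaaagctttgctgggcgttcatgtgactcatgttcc
Tnip2: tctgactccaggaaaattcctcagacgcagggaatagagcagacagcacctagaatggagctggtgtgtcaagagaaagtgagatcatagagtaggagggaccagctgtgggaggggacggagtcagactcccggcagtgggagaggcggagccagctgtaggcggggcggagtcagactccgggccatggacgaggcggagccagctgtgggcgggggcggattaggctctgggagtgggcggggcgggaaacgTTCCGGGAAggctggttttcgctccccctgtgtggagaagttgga
A match of letters is a description of the sequence, and binding was not measured. Lrrc2 rose from 26.0 and 24.4 CPM to 86.6 and 110.0 (log2 fold change 1.96, SE 0.17, edgeR adjusted p = 0.00473), and Tnip2 from 8.85 and 7.90 CPM to 20.4 and 25.8 (log2 fold change 1.46). Among 18 reactive Müller glia genes with a promoter in the table, Gfap alone held the motif.

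**Figure D2:**
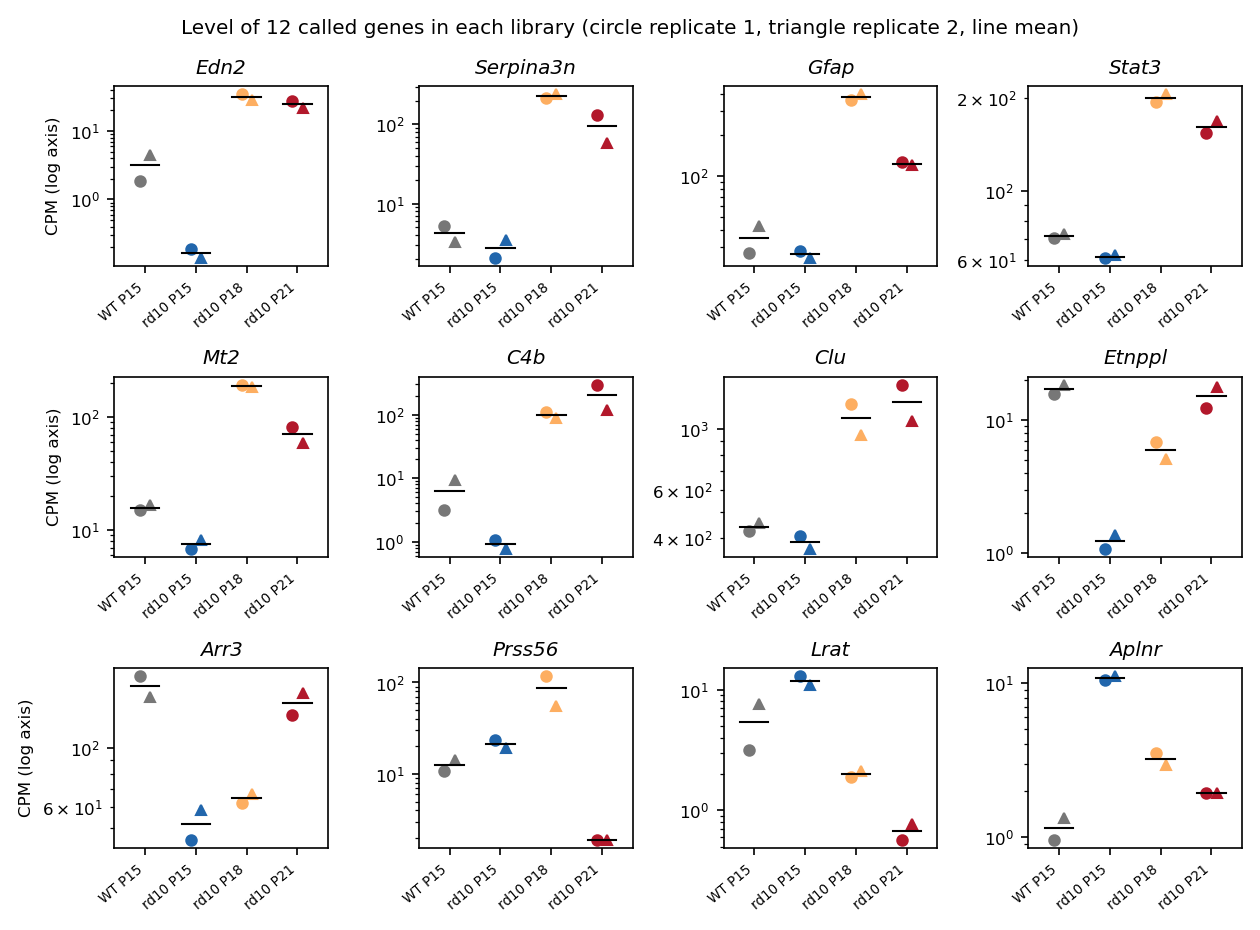
CPM of 12 called genes (log vertical axes) in the 8 libraries, grouped as WT P15, rd10 P15, rd10 P18 and rd10 P21; circles are replicate 1, triangles replicate 2 and lines the group means. Gfap peaks at P18 (363 and 399 CPM) and is lower at P21 (126 and 119.8), Arr3 reaches 133 and 160 CPM at P21 only among the rd10 ages, and Prss56 falls from 117 and 54.8 CPM at P18 to 1.91 and 1.92 at P21.

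Genes of resting Müller glia did not move as one. Of 15 listed, Clu, an extracellular chaperone, was the called member, at 407 and 367 CPM at P15 and at 1437 and 1064 at P21 (log2 fold change 1.69, SE 0.19, edgeR adjusted p = 0.0178). Aqp4, the water channel of glial endfeet, was at 113 and 100.5 CPM against 242 and 187 and was not called (adjusted p = 0.108). Glul, the glutamine synthetase that clears glutamate in these cells, was at 2570 and 2164 CPM against 2915 and 2884. The median of the list was 0.29 (0.17 to 0.45 without either P15 library), with 9 members above in both P21 libraries and 2 below. The Clu call was lost without either P15 library or without P21 replicate 1, with a log2 fold change of 1.46 at the lowest.

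Of 8 astrocyte genes, Gfap and Aldh1l1, a folate enzyme used as an astrocyte marker, rose, and the median was 0.32, or -0.081 without P21 replicate 2. Aldh1l1 was at 12.8 and 14.5 CPM at P15 and at 38.8 and 29.0 at P21. The nuclear astrocyte marker Pax2 and S100b had both P21 libraries below both P15 libraries without being called. Etnppl, which breaks down phosphoethanolamine and is known as a glial gene, was at 1.08 and 1.38 CPM at P15, at 6.83 and 5.10 at P18 and at 12.4 and 17.8 at P21 (log2 fold change 3.62, SE 0.32, edgeR adjusted p = 0.00473). The WT retinas of P15 already had 15.7 and 18.3 CPM of Etnppl, so the rd10 values at P21 overlapped those of the younger WT retina.

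Complement genes were higher at P21 as a group, with C4b as the called member. C4b, a component of the classical pathway, was at 1.05 and 0.776 CPM at P15 and at 292 and 117 CPM at P21 (log2 fold change 7.79, SE 0.81, edgeR adjusted p = 0.0323). Of 17 listed genes, 16 had both P21 libraries above both P15 libraries, 15 had an unadjusted p under 0.05 in that direction, and the median log2 fold change was 2.55. Their summed level was 77.4 and 79.0 CPM at P15 and 803 and 318 CPM at P21, so that the older retinas differed 2.52-fold between themselves. Without P21 replicate 1 the median was 1.59, and DESeq2 called 12 of the genes. C4b was called in 8 of the 15 alternatives, with log2 fold changes between 6.99 and 8.31. The call was lost without either P15 or either P18 library, without a filter on low counts, with only the 4 libraries compared and with a replicate block (adjusted p up to 0.28).

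C3, the central component, was at 0.796 and 1.34 CPM at P15 and at 86.3 and 20.2 at P21 (adjusted p = 0.0673). C1qa, a subunit of the recognition molecule C1q made by microglia, was at 8.85 and 5.71 against 53.1 and 21.9. Serping1, the inhibitor of C1, was at 4.81 and 3.42 against 143 and 45.4 (adjusted p = 0.0568). Cfb, of the alternative pathway, had no count at P15 and 26.4 and 2.69 CPM at P21, at least 314-fold higher over the pooled counts, and 526-fold and 53.7-fold by P21 replicate 1 and 2 alone, and its exons overlap those of Gm20547. In each of these 4 genes both P21 libraries were above both P15 libraries, and replicate 1 was the higher at P21.

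Microglial genes were also higher, with less certainty. Of 14 markers of resting microglia, edgeR called 1. The median log2 fold change of these 14 was 1.24, with 9 above in both P21 libraries and none below, and 8 with an unadjusted p under 0.05. Csf1r, the receptor that keeps microglia alive, was at 28.6 and 25.3 CPM against 84.2 and 39.99, and Tmem119 at 2.23 and 2.996 against 10.9 and 4.79. P2ry12, the purinergic receptor of surveying microglia, was at 7.86 and 8.07 CPM against 9.02 and 6.08, so its ages overlapped.

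Of 25 genes of disease-associated microglia (DAM), a state described around damaged neurons, edgeR called none, 18 had an unadjusted p under 0.05 (16 higher and 2 lower), and DESeq2 called 11. The study named several of them from these same libraries, so the list is no independent evidence of its direction. It also reported more Trem2 RNA in rd10 retina by quantitative PCR, and TREM2 staining in microglia of the photoreceptor layer. The median was 1.40, and 19 lay above and 2 below in both P21 libraries. Trem2, a lipid-sensing receptor, was at 1.94 and 2.26 CPM at P15 and 9.99 and 5.70 at P21, and Clec7a, a receptor for fungal glucans, at 0 and 0.176 against 11.3 and 2.73. The lysosomal protein Cd68 was at 2.23 and 2.33 against 15.1 and 4.86. Fabp5 and Lpl, which handle fatty acids, were lower in both P21 libraries, Lpl at 37.2 and 36.5 CPM after 51.4 and 47.6.

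P21 replicate 1 exceeded P21 replicate 2 in all 25 DAM genes, the 2 with no count in replicate 2 included, and the median ratio over the other 23 was 1.75. Without P21 replicate 1 the DAM median was 0.61 and that of the resting markers 0.79, and without P21 replicate 2 they were 1.81 and 1.65. Of 23 lysosomal and phagocytic genes, 1 was called, 16 were above in both P21 libraries and the median was 0.50, or 0.24 without P21 replicate 1. Ctss, a protease of phagocytes, was at 17.1 and 13.1 CPM against 94.5 and 40.6 (adjusted p = 0.0775). Markers of blood-borne cells were scarce: 5 of 13 monocyte and neutrophil genes and 7 of 10 lymphocyte genes did not pass the filter, and among the 4 libraries Ly6c2 of inflammatory monocytes was found in P21 replicate 1 alone, at 6.57 CPM. The 8 tested monocyte and neutrophil genes had a median of 2.30, or 0.27 without P21 replicate 1, and the 3 tested lymphocyte genes one of -0.70, or -1.93 and 0.28 without P21 replicate 1 or 2. Neither edgeR nor DESeq2 called any of them, and 1 of the 11 had an unadjusted p under 0.05.

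In interferon-stimulated genes the median log2 fold change was 3.69, and the P21 retinas were far apart in them. Of 30 such genes, 29 had both P21 libraries above both P15 libraries, and 27 had an unadjusted p under 0.05 in that direction. edgeR called none of them, while DESeq2 called 26. Their summed level was 157 and 152 CPM at P15 and 2235 and 447 CPM at P21, beside 2504 and 1048 at P18 and 210 and 220 in WT retina at P15. P21 replicate 1 was above replicate 2 in 30 of 30, by a median ratio of 4.81 (1.72 to 13.4 over the 29 with counts in both).

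Isg15, a ubiquitin-like protein attached to other proteins in antiviral states, was at 0.382 and 0.282 CPM at P15 and at 44.4 and 3.46 at P21. Ifit1, which binds foreign RNA ends, was at 0.891 and 1.34 CPM against 123 and 9.19, and Ifit3 of the same family at 4.39 and 3.88 against 152 and 22.4. In each of these genes the lower P21 library was still above both P15 libraries. Zbp1, a sensor of Z-form nucleic acid, was the exception of the list: it had 11.7 CPM in P21 replicate 1 and no count in replicate 2 or at P15.

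The difference between the ages changed in size with the library left out, and the sexes of the P21 retinas differed in the same way. Without P21 replicate 1, the male retina, the median of the list was 1.83, and without replicate 2, the female retina, it was 4.36 with 12 genes called. A fit with a term for sex called 21. The microglial, MHC and complement genes moved with the same library. At P18 replicate 1 was likewise the male retina, by Y-linked transcripts, and replicate 2 the female, by Xist. There the interferon sum was 2504 and 1048 CPM and the MHC class I sum 1173 and 599. The sum of the resting microglia markers had the other order at P18, with 226.5 and 257 CPM. The part of microglial number or of sex in the gap was not tested.

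Promoters of interferon-stimulated genes hold a response element, searched here as GAAANNGAA on both strands with overlapping matches allowed. It was found in 17 of 24 listed genes with a promoter in the table (70.8%) and in 9.76% of all 27025 genes there. Of the risers 4 of 44 held it (9.09%), of the fallers 3 of 11 (27.3%), and of the reactive Müller glia genes none of 18. The promoters of Isg15 (chr4:156200769-156201068, minus strand), Ifit1 (chr19:34640639-34640938, plus strand) and Ifit3 (chr19:34583279-34583578, plus strand) are shown, with the matches in capitals, since each held 3 matches and their genes are those whose levels are given above.
Isg15: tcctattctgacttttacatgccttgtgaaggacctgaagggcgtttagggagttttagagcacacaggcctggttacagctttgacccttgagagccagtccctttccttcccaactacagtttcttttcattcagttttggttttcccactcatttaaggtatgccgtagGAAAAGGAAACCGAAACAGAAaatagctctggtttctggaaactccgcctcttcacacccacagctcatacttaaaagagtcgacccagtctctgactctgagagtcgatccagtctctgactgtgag
Ifit1: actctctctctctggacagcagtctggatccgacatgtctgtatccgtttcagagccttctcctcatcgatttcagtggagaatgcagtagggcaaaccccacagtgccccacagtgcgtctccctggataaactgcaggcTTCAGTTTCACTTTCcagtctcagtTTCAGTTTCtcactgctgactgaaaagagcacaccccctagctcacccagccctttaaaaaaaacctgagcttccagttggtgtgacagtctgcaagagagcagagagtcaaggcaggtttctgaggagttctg
Ifit3: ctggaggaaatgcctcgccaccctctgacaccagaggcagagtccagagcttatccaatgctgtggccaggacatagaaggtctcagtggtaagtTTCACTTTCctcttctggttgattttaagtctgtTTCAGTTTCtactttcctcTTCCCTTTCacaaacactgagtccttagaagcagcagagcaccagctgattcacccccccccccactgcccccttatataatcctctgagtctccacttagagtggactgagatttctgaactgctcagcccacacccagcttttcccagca
In the Isg15 promoter the 3 matches overlap into 1 run, and those in Ifit1 and Ifit3 read on the opposite strand. The shares describe these 300 bases alone. The list was made of known interferon-stimulated genes, so its share describes that class and not the change from P15 to P21.

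**Figure D3:**
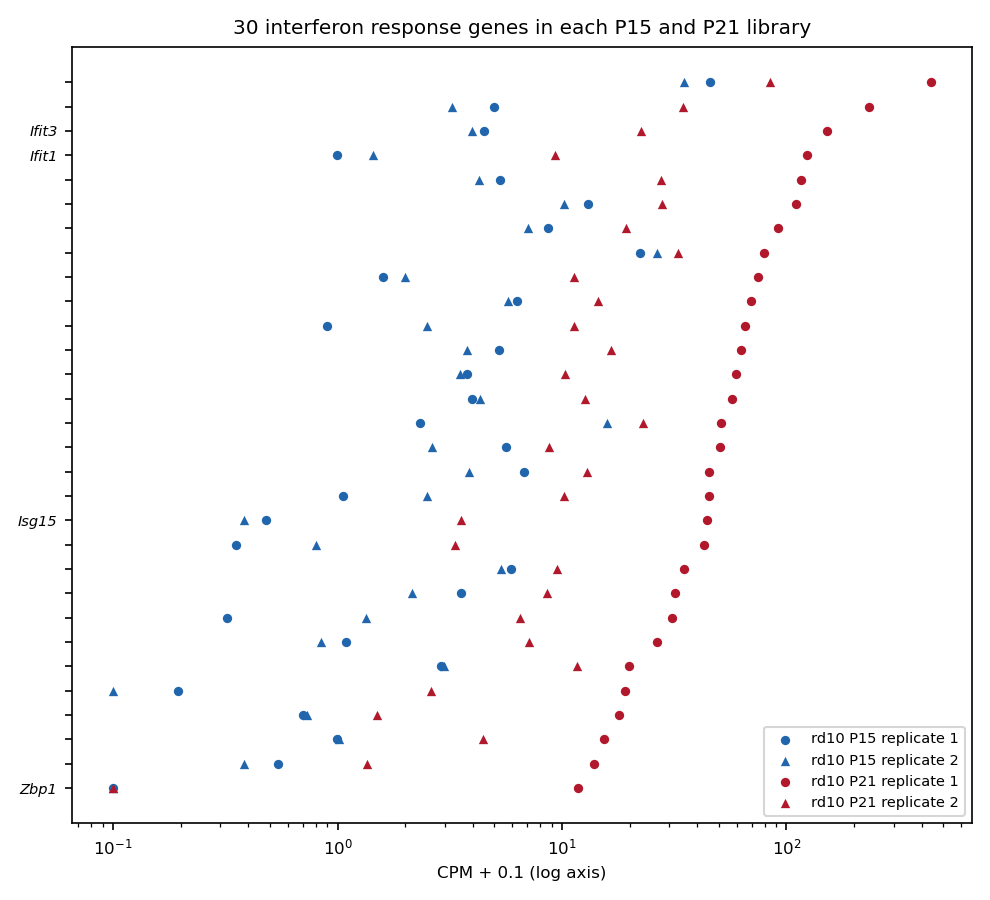
CPM + 0.1 (log horizontal axis) of 30 interferon response genes, 1 row per gene with the genes described here named, and blue points for the P15 and red points for the P21 libraries; circles are replicate 1 and triangles replicate 2. The red circles of P21 replicate 1 lie to the right of the red triangles in 30 of 30 rows, and the red triangles lie to the right of both blue points in 29.

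Antigen presentation genes followed the same order of libraries. Of 16 MHC class I genes, which show peptides of the cell's own proteins, 15 lay above in both P21 libraries, 15 had an unadjusted p under 0.05, and the median was 2.96. edgeR called none and DESeq2 10. B2m, the light chain of class I molecules, was at 18.7 and 18.2 CPM at P15 and at 356 and 80.9 at P21, and the heavy chain H2-D1 was at 46.8 and 46.8 against 432 and 117. Of 7 MHC class II genes, 6 were above in both P21 libraries, 4 had an unadjusted p under 0.05 in that direction, edgeR called none and DESeq2 called 4. Cd74, the invariant chain of class II, was at 1.08 and 0.494 CPM against 31.3 and 3.08. The class II median was 3.82, or 3.36 with a gene absent at P15 set to its lower bound. Without P21 replicate 1 the medians of the classes were 1.68 and 1.71.

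Of 21 tested chemokine and cytokine genes, edgeR called none, 5 had an unadjusted p under 0.05, all higher, and DESeq2 called 2. The median was 0.76, or 0.62 with genes absent at one age at their bounds, and 0.18 without P21 replicate 1. Ccl2, which draws monocytes, was at 0 CPM in both P15 libraries, at 17.4 and 4.88 at P18 and at 1.20 and 0.105 at P21. Csf1, the growth factor of microglia, was at 2.61 and 5.18 CPM at P15, 18.3 and 18.2 at P18 and 19.2 and 10.03 at P21 (adjusted p = 0.106). Csf1 thus stayed near its P18 level in 1 of the P21 retinas, while both P21 values of Ccl2 were below both of P18.

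Rod genes were lower at P21 with modest folds, and none passed the test. Of 18 genes of rod phototransduction, 13 had both P21 libraries below both P15 libraries and 2 above, 9 had an unadjusted p under 0.05 in the lower direction and 1 in the higher, and the median log2 fold change was -0.54, or -0.35 without P21 replicate 1. edgeR and DESeq2 called none of them. Their summed level was 37570 and 40590 CPM at P15 and 25200 and 31510 CPM at P21, against 62530 and 50460 in WT retina at P15. The rod sum at P21 was thus 0.726 times that at P15, and 0.645 and 0.806 times in the single P21 retinas.

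Gnat1 was at 7984 and 8362 CPM at P15 and at 4461 and 5500 at P21 (log2 fold change -0.71, SE 0.14, edgeR adjusted p = 0.0890). Pde6b, the mutated gene, was at 1546 and 1799 CPM against 964 and 1360, and its partner Pde6g at 1438 and 1627 against 716 and 972. These 3 cascade genes were lower in both P21 libraries, and replicate 1, the library with more interferon-stimulated transcripts, was the lower. Guca1a, the calcium sensor that activates guanylate cyclase, was on the other side, with 119 and 139 CPM at P15, 203 and 261 at P21 and 651 and 585 in WT retina at P15.

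Outer segment genes, which build the membrane stack that captures light, were lower to the same degree. Of 12, 11 lay below in both P21 libraries, 9 had an unadjusted p under 0.05 in that direction, edgeR and DESeq2 called none, and the median was -0.54. Prph2, which shapes the disc rim, was at 4380 and 4829 CPM against 2468 and 3292, and its partner Rom1 at 1949 and 2119 against 1094 and 1385. The exception was Pcare, an actin-linked gene of disc formation, at 265 and 308 CPM against 344 and 435.

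Transcription factors of photoreceptors were mixed, with a median of -0.31 over 13 (-0.097 without P21 replicate 1) and none called by edgeR, while 6 had an unadjusted p under 0.05 (1 higher, 5 lower) and DESeq2 called 1. Nr2e3, which keeps rods from expressing cone genes, was at 374 and 474 CPM at P15 and at 179 and 222 at P21 (log2 fold change -1.08, SE 0.18, edgeR adjusted p = 0.0603). WT retina at P15 had 418 and 334 CPM, and rd10 retina at P18 had 160 and 171. Nrl, the rod master regulator, overlapped between the ages, with 1271 and 832 CPM at P15 and 760 and 1078 at P21. Crx, which serves rods and cones alike, was at 567 and 652 CPM against 737 and 857. Photoreceptor synapse genes had a median of -0.03, with 6 of 14 above and 6 below.

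Cone genes went the opposite way. Of 11 genes of cone phototransduction, 10 had both P21 libraries above both P15 libraries and none below, 7 had an unadjusted p under 0.05, and the median was 0.55. The called gene was Arr3, cone arrestin, which shuts off cone opsins: it was at 45.3 and 58.7 CPM at P15, 62.3 and 67.3 at P18 and 133 and 160 at P21 (log2 fold change 1.49, SE 0.18, edgeR adjusted p = 0.0193). WT retina at P15 had 185 and 155 CPM of Arr3, so that at P21 replicate 2 lay between the WT values and replicate 1 below both. The Arr3 call was lost without either P15 library, with a log2 fold change between 1.32 and 1.69 over all alternatives.

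Both cone opsins stood higher at P21 without being called. Opn1sw, the short-wave opsin, was at 237 and 265 CPM against 428 and 500 (adjusted p = 0.0965), and Opn1mw, the middle-wave opsin, at 90.4 and 112 against 145 and 152. Gnb3, the transducin beta subunit of cones and ON bipolar cells, was at 305 and 283 CPM against 516 and 485 (adjusted p = 0.0603). The summed cone level was 1154 and 1229 CPM at P15 and 1888 and 1960 at P21, or 1.61 times, with WT retina of P15 at 2009 and 1639. The P21 retinas were close to each other in this sum, replicate 1 at 0.963 times replicate 2. CPM are shares of all transcripts, and the number of cones was not measured.

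**Figure D4:**
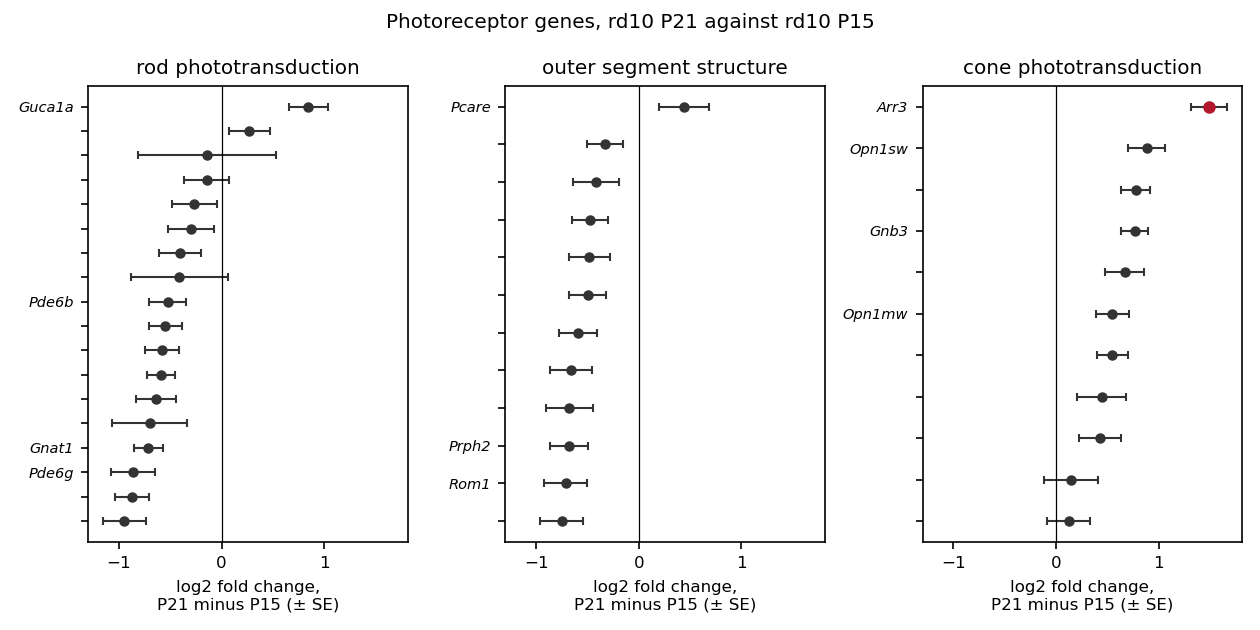
Log2 fold change from P15 to P21 with its SE (bars) for 18 rod phototransduction, 12 outer segment and 11 cone phototransduction genes, a panel each with the genes described here named; red marks the called gene. Of the rod genes 16 lie left of 0 and 2 right, all 11 cone genes lie right of 0, and Arr3 at 1.49 is the farthest of them.

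Among the inner retinal neurons, the genes of ganglion cells, whose axons form the optic nerve, were lower at P21. In 13 of 13 ganglion cell genes both P21 libraries were below both P15 libraries, 9 had an unadjusted p under 0.05 in that direction, and the median was -0.52. None was called by edgeR and 1 by DESeq2. Nefm, a neurofilament of ganglion cell axons, passed the adjusted p but not the fold threshold: it was at 552 and 590 CPM at P15 and at 318 and 309 at P21 (log2 fold change -0.87, SE 0.12, edgeR adjusted p = 0.0342), with WT retina of P15 already at 332 and 335. Gap43, a protein of growing axons, was at 82.1 and 77.7 CPM against 41.6 and 34.7 (adjusted p = 0.0655), beside 34.7 and 38.2 in WT retina at P15. Thy1 and Pou4f2, used to count ganglion cells, had smaller differences, Thy1 with 257 and 247 against 215 and 218.

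For 18 bipolar genes the median was 0.21, with 8 above and 2 below in both P21 libraries, 2 with an unadjusted p under 0.05, both higher, and none called by edgeR or DESeq2. Rgs11, which speeds the mGluR6 cascade, was at 54.6 and 43.9 CPM at P15 and at 87.9 and 81.7 at P21 (adjusted p = 0.0956), and Grm6, the receptor itself, overlapped between the ages. The medians of 15 amacrine and 8 horizontal cell genes were 0.01 and 0.17, in each list 1 gene had an unadjusted p under 0.05, and neither tool called any. Onecut2, a horizontal cell factor, was at 15.6 and 11.95 CPM against 20.6 and 23.8.

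Tubb2b, Nnat and Hmgn2 fell. Tubb2b, a tubulin of growing neurites, was at 178 and 171 CPM at P15, 161 and 123 at P18 and 88.4 and 73.9 at P21 (log2 fold change -1.11, SE 0.17, edgeR adjusted p = 0.0431). Nnat, neuronatin, an imprinted gene of developing brain, was at 65.8 and 83.7 CPM against 26.0 and 21.3, and Hmgn2, a nucleosome-binding protein, at 365 and 352 against 139.8 and 120.4. In WT retina at P15 the 3 genes were at 63.7 and 72.3, at 16.7 and 12.1, and at 216 and 185 CPM, in each case below rd10 retina of the same day. At P21, Tubb2b and Nnat were still above both of these WT libraries, and Hmgn2 was below both. Tubb2b was called in 6 and Hmgn2 in 8 of the 15 alternatives, and both calls were lost without any 1 of the WT, P15 or P21 libraries. The call of Nnat was lost without any 1 of the P15 or P21 libraries.

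Genes of the retinal pigment epithelium (RPE) and of vessels were among the fallers with large changes. Lrat, which esterifies vitamin A in the RPE, was at 12.9 and 10.8 CPM at P15, 1.88 and 2.11 at P18 and 0.571 and 0.769 at P21 (log2 fold change -4.15, SE 0.49, edgeR adjusted p = 0.0193). Of 14 RPE genes, 9 lay below in both P21 libraries and 3 above, 9 had an unadjusted p under 0.05 in the lower direction and 1 in the higher, and DESeq2 called 9. The median was -2.08. Rpe65, the isomerase of the visual cycle, was at 14.7 and 19.9 CPM against 1.46 and 1.54, and Ttr, a carrier of thyroid hormone and retinol, at 99.4 and 124 against 16.0 and 15.7.

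The RPE sum was 412 and 470 CPM at P15 and 221 and 202 at P21, and the WT retinas of P15 differed between themselves, with Rgr at 13.2 and 52.2 CPM. The RPE lies outside the neural retina, and how much of it came with each dissected retina was not tested. Otx2, which photoreceptors and bipolar cells also express, and Mitf, a pigment cell factor, were higher in both P21 libraries, Mitf with 3.72 and 4.37 CPM against 10.3 and 8.39. The Lrat call was lost without any 1 of the 4 libraries, with log2 fold changes between -4.36 and -3.94.

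Aplnr, the apelin receptor of sprouting endothelium, was at 10.4 and 11.1 CPM at P15 and at 1.94 and 1.92 at P21 (log2 fold change -2.47, SE 0.33, edgeR adjusted p = 0.0277). Its ligand Apln, a gene of the tip cells of growing vessels, was at 11.6 and 15.6 CPM against 2.34 and 3.81 (adjusted p = 0.0899), and Rgs5, a pericyte gene, passed the adjusted p with a log2 fold change of -0.91 (edgeR adjusted p = 0.0351), at 173 and 190.1 CPM against 90.4 and 102. In WT retina at P15, Aplnr was at 0.961 and 1.33 CPM and Rgs5 at 88.3 and 90.8, so rd10 retina at P21 stood close to younger WT retina. Of 21 endothelial and pericyte genes, 11 were below and 4 above in both P21 libraries, 8 and 2 with an unadjusted p under 0.05, and the median was -0.29, or -0.16 without P15 replicate 2. Kdr and Flt1, the receptors for vascular endothelial growth factor, were among the members above, Kdr with 278 and 215 CPM against 418 and 321.

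Prss56, a serine protease of Müller glia that takes part in the growth of the eye, had a course of its own. It was at 23.3 and 19 CPM at P15, at 117 and 54.8 at P18 and at 1.91 and 1.92 at P21, with 10.8 and 14.2 in WT retina at P15. The P21 to P15 log2 fold change was -3.46 (SE 0.37, edgeR adjusted p = 0.0158). The call was lost without any 1 of the 4 libraries, with log2 fold changes between -3.60 and -3.14. It was the called gene of 13 listed for ciliary body, iris and vitreous matrix, whose median was 0.01. Optc and Mfap4 of that list were at 5.57 and 71.1 CPM and at 0.914 and 9.96 in the P21 retinas, so that replicate 2 carried more of these transcripts.

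Other fallers were Col8a1, a short-chain collagen (39.0 and 38.0 CPM against 10.5 and 12.5), Kif19a, a kinesin that trims cilia (31.4 and 40.5 against 10.7 and 10.3), Col26a1, a collagen (11.1 and 10.2 against 1.49 and 2.06), and Adamts16, a secreted metalloprotease (5.92 and 9.13 against 0.628 and 0.489). Plpp2, a lipid phosphatase, was at 93.7 and 86.9 CPM against 22.7 and 32.2. Ppargc1b and Acat1 serve mitochondrial energy use, the first as a coactivator and the second in ketone and isoleucine breakdown. Ppargc1b was at 99.9 and 113 CPM at P15, with 44.5 and 56.4 at P18 and 52.5 and 52.2 at P21, and Acat1 at 105 and 111 against 47.9 and 57.6. Ddx6, an RNA helicase of processing bodies, was at 405 and 355 CPM against 157 and 178, with 434 and 406 in WT retina at P15. Of the 21 fallers, the mean at P18 was between the means of the other ages in 13, above both in 4 and below both in 4.

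Mef2c, a transcription factor of neurons and muscle, was at 11.5 and 12.1 CPM at P15, 19.99 and 18.8 at P18 and 28.7 and 35.9 at P21 (log2 fold change 1.46, SE 0.22, edgeR adjusted p = 0.0411). WT retina at P15 had 104 and 68.8 CPM, more than any rd10 library. Other risers known from neurons or metabolism were Syt2, a vesicle calcium sensor (22.4 and 22.3 CPM against 59.2 and 64.2), Sgk1, a kinase induced by glucocorticoids (34.9 and 37.9 against 106 and 180.1), Gckr, the regulator of glucokinase (23.9 and 29.9 against 102 and 136), and Cyp27a1, a mitochondrial sterol hydroxylase (0.477 and 1.20 against 7.05 and 7.94). Sgk1 and Syt2 were above both P15 values in both P18 libraries too. Pygm, the glycogen phosphorylase of muscle and glia, passed the adjusted p under the fold threshold, with 79.6 and 76.9 CPM against 153 and 151 (log2 fold change 0.96, edgeR adjusted p = 0.0219).

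The mitochondrial genome gave 1 called gene, mt-Atp6, a subunit of ATP synthase. It was at 427 and 434 CPM at P15, 483 and 395 at P18 and 1787 and 1816 at P21 (log2 fold change 2.07, SE 0.14, edgeR adjusted p = 0.00236), and WT retina at P15 had 2641 and 2539. Of the other 12 mitochondrial genes, 11 had both P21 libraries below both P15 libraries and mt-Nd2 overlapped, and the median of all 13 was -0.23. The model of mt-Atp6 overlaps those of mt-Atp8 and mt-Co3, and neither neighbour shared its course: mt-Atp8 was at 539 and 534 CPM against 438 and 468, and mt-Co3 at 2138 and 2257 against 1725 and 1717. How reads in shared bases were assigned is not given in the sources used here.

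Circadian clock genes had a median of 0.43 over 17. Bhlhe40, a repressor that answers to light and clock, was the called one, at 43.8 and 34.7 CPM at P15 and 86.1 and 77.1 at P21 (log2 fold change 1.05, SE 0.15, edgeR adjusted p = 0.0363). In 12 both P21 libraries were above and in 1 below, and 6 had an unadjusted p under 0.05, all higher. Bhlhe40 was called in 8 of the 15 alternatives, and the call was lost without any 1 of the WT, P15 or P21 libraries and with a replicate block (adjusted p up to 0.267). Nr1d1, a repressor of the clock's positive arm, was at 154 and 148 CPM against 230.2 and 236 (adjusted p = 0.0859). The clock time of tissue collection was not tested. Of 21 immediate early genes, induced within minutes by activity or stress, edgeR called none and DESeq2 4, while 7 had an unadjusted p under 0.05 in the higher and 1 in the lower direction, with a median of 0.57. Junb was at 19 and 21.2 CPM against 39.8 and 52.9 (adjusted p = 0.0643), and Egr1 went the other way, at 425 and 271 against 205 and 202.

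Cell death genes changed little as a group. Of 26, Tnfrsf1a was called, 5 had an unadjusted p under 0.05 in the higher and 1 in the lower direction, and the median was 0.11. Gsdmd, a pore-forming protein of inflammatory death, was at 0.0637 and 0.106 CPM at P15 and at 4.77 and 0.734 at P21. Apart from Mt1 and Mt2, no gene of 21 for antioxidant and metal defence was called, and the median was 0.22. Hmox1, which breaks down heme, was at 1.53 and 0.952 CPM against 11.7 and 3.95 (adjusted p = 0.126), and Gpx4, a peroxidase that reduces lipid hydroperoxides, at 416 and 449 against 299 and 296.

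Lists for other processes stayed near the median of all genes, and edgeR called no member of any of them. The median was 0.11 over 17 genes of the unfolded protein response (2 higher and 2 lower at an unadjusted p under 0.05), -0.07 over 19 of glycolysis (1 and 3), -0.03 over 20 of extracellular matrix (5 and 2), 0.02 over 19 of the cell cycle (1 and 0) and 0.15 over 8 of myelin (1 and 1). DESeq2 called 1 glycolysis and 1 matrix gene and none in the other 3 lists. Slc16a8, a lactate transporter of the RPE, was at 14.7 and 14.95 CPM at P15 and at 1.599 and 2.76 at P21, and Hk2, the hexokinase of rods, at 217 and 246 against 376 and 537. Lens crystallins (median 0.00 over 9) and red blood cell genes (median 0.76 over 5), which mark lens and blood carried over with the tissue, were low, with 2 and 2 genes higher at an unadjusted p under 0.05 and none called by either tool. Hba-a1, a haemoglobin gene, was at 14.8 and 18.9 CPM against 35.8 and 32.9.

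**Figure D5:**
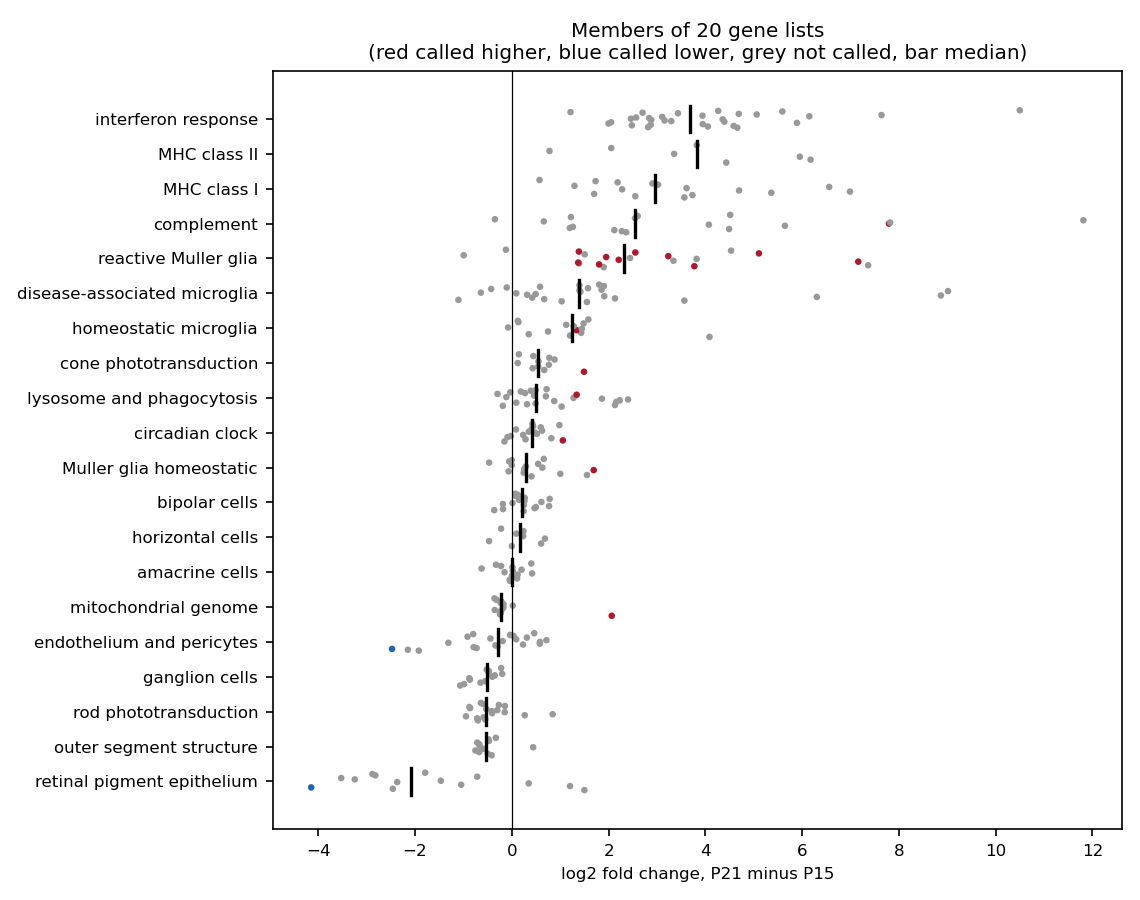
Log2 fold change from P15 to P21 (horizontal axis) for the tested members of 20 gene lists, 1 row per list; each point is a gene, red where it rose, blue where it fell and grey where it was not called, and black bars are list medians. The bars run from 3.82 for MHC class II and 3.69 for interferon response genes to -2.08 for RPE genes, with 10 red points among reactive Müller glia genes and none among interferon response genes.

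For some called genes the gene model leaves the change uncertain. Fam177a was at 36.1 and 36.6 CPM at P15 and 29.2 and 27.4 at P18, and had no count in either P21 library, at least 771-fold lower, while Ttc30a2, of a family of ciliary transport genes with close copies, went from 1.75 and 2.47 CPM to no count, at least 44.3-fold lower. A second identifier of Nnt, the proton-pumping transhydrogenase of mitochondria, had no count outside the P21 group and 14.7 and 9.96 CPM in it. The sum of both Nnt identifiers was 10.9 and 8.71 CPM at P15 and 21.3 and 17.6 at P21. Gdf1, which shares exons with Cers1, fell from 15.1 and 6.52 CPM to 0.314 and 0.175, but the sum of both was 32.3 and 35.5 CPM at P15 and 29.8 and 33.5 at P21. For Nnt the sum kept a difference between the ages, and for Gdf1 it overlapped. In all, 24 of the 82 called genes overlap an exon of another gene, and 73 are protein coding.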

How the data were processed

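Poly(A) RNA of whole retinas was sequenced by the authors, 1 retina per library and 2 libraries per group. The deposited table holds raw counts, whole numbers without normalization, in 8 columns for 57010 Ensembl identifiers. The submitters' processing notes name HISAT2, and for build, annotation and counter the sources used here give nothing. Symbols, chromosomes and shared exons come from GENCODE M21 (GRCm38), which named 52029 identifiers, and promoter sequences from RefSeq (GRCm38.p6).

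Counts were filtered with filterByExpr over the 4 groups (minimum count 10, minimum total 15), scaled by TMM and fitted with edgeR 4.0.16 (limma 3.58.1, R 4.3.3), a robust quasi-likelihood model of the 4 groups with no term for the replicate number. Adjusted p are Benjamini-Hochberg over 20457 genes, and a gene was called under 0.05 with an absolute log2 fold change over 1. The study used the same thresholds, but with DESeq2 and not with edgeR. The SE is the log2 fold change divided by the square root of F. Where a gene had no count at one age, 3 counts over that group stood in as its upper limit, which covers counting error only. With 2 libraries on each side the smallest exact permutation p is 0.333, so that test was not used. Replicates differed by more than counting noise.

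The comparison and the gene lists were chosen with earlier results of these data known. Genes named are the 15 largest rises and 10 largest falls among called genes with a mean count of at least 50 and no overlap of libraries, called list members, up to 4 further members of a list with large differences and one with a high level, and other called genes; any other gene was chosen after its values were seen, and some that the rule names are not reported here. Alternatives were DESeq2 1.42.0, scaling by RLE or by library size alone, no filter, only the 4 libraries compared, a replicate block, a term for sex, no fold threshold and each library left out. The fits were tested on simulated data. Figures were drawn with matplotlib 3.10.9.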

Additional observations from a re-analysis of the deposited data

Results flagged for a closer look

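The differences from P15 to P18 and from P15 to P21 were themselves compared, which is the test of P21 against P18, and edgeR's quasi-likelihood test called 4 genes. Prss56 was lower at P21 than at P18 by a log2 fold change of -5.48 (adjusted p = 0.00391), Gdf1 by -6.47 (adjusted p = 0.00992) and Fam177a by -12.77 (adjusted p = 4.91e-05), while mt-Atp6 was higher by 2.04 (adjusted p = 0.00391). In each of the 4 genes the P18 and P21 libraries did not overlap. Gdf1 shares exons with Cers1 and mt-Atp6 with its neighbours, and Fam177a had no count at P21. The sum of Gdf1 and Cers1 overlapped between these ages, at 42.77 and 32.45 CPM at P18 and 29.83 and 33.46 at P21. What sets the values of the 4 genes was not tested.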

How the results depend on the processing

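Of the 138 values that answer a comparison under an alternative, 92 stayed the same and 46 moved. Many are counts of called genes, which have no direction, and none of the list medians among them changed sign. The 82 calls of P21 against P15 (61 higher, 21 lower) became 532 with DESeq2 (420 and 112), 125 without a filter on low counts (93 and 32), 182 with only the 4 libraries compared (115 and 67) and 156 with a term for sex (126 higher). The 156 with the term for sex held 68 of the 82. Against P15, P18 had 594 calls with DESeq2 and 275 with the term for sex, beside 121. P21 against P18 had 116 with DESeq2, 19 without a filter and 12 with the term for sex, beside 4. Leaving out each library in turn gave 10 to 217 calls at P21 against P15 (8 to 156 higher, 2 to 61 lower), 16 to 977 at P18 against P15 and 3 to 963 at P21 against P18. Fits without P15 replicate 1 or 2 gave the 11 and 10 calls named above, and those without P18 replicate 1 or 2 gave 217 and 216. Over the same fits the median log2 fold change lay between 0.45 and 0.69 for cone genes, 1.83 and 4.36 for interferon genes, 2.02 and 2.54 for reactive Müller glia genes and -0.65 and -0.35 for rod genes. The cause of these shifts was not tested, beyond the smaller groups that the fits with a library left out had.

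Scaling by library size only gave 90 calls, moved the median of all genes from 0.011 to 0.0779 and the share of higher calls from 74.4% to 83.3%. The deviations of same-numbered libraries correlated at -0.0245 to 0.0594 between groups. Whether same-numbered retinas shared a litter or batch cannot be told from these values. A replicate block gave 66 calls, 55 of them among the 82.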
